A study of Mus musculus with 10 samples.

Results

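Cholesterol synthesis and transport genes were followed in RNA of dorsal root ganglia (DRG) of mouse embryos at E18.5. The set was chosen by gene symbol: every row of the count files whose Ensembl identifier maps to 1 of 27 named genes was taken. All 27 genes were found among the 55414 genes listed, and all 27 were also among the 17490 genes with enough counts to be tested. Their counts ranged from 113 to 23909 reads per library.

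Whole DRG, that is neurons and glia together, were dissected from 5 control and 5 *WD1* cKO embryos, 1 library per sample, and measured by bulk RNA-sequencing. By the genotype labels every embryo carried *Dach1* flox/flox alleles, in which exon 2 of *Dach1* is flanked by loxP sites. *WD1* cKO embryos carried Wnt1 Cre in addition, a recombinase that acts in the neural crest and so reaches both the neurons and the glia of the ganglion, whereas cells of other origin such as vessels and blood keep the gene. Controls are taken to have had no Cre, which rests on the titles, as set out below. The comparison asks what the loss of the transcription factor Dach1 changes in DRG before birth. In bulk RNA, fewer cells of a type and less RNA per cell cannot be told apart. At this age the study found Dach1 protein mainly in touch neurons that carry the receptor TrkB. A change limited to those cells would be diluted in RNA of the whole ganglion.

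Control libraries held 20465132 to 27528784 counts and *WD1* cKO libraries 19757596 to 34796562. Titles and genotype labels contradict each other, with Wnt1 Cre entered for the libraries titled as controls, and groups follow the titles. *Dach1* went with the titles: it was lower in *WD1* cKO libraries (log2 fold change -0.92 ± 0.050 SE, edgeR's quasi-likelihood test, Benjamini-Hochberg adjusted, adjusted p = 5.48e-06, n = 5 per group), with no overlap between the groups. Libraries fell into sets that the labels do not name: replicates 4 and 5 of both groups lay apart from replicates 1 to 3 on the first principal component, which held 34.0% of the variance. The summed level of 5 blood genes ran along these sets, from 155 CPM (counts scaled to library size and composition by TMM in edgeR) in control replicate 4 to 2464 CPM in control replicate 1. Control replicate 3 stood apart by 5 spinal cord genes, which summed to 12.5 CPM there and to between 0.0736 and 1.13 CPM in the other 9 libraries. Sensory neuron markers were high in every library, with a sum of 5604 to 6084 CPM over 7 genes.

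Cells make cholesterol from acetyl units. The mevalonate branch builds an isoprenoid, its product is joined into squalene, and squalene is closed into a ring and trimmed to cholesterol by a series of sterol enzymes. The proteins encoded by *Srebf1* and *Srebf2* (SREBPs) switch these genes on when sterols run low: the escort protein Scap carries them out of the endoplasmic reticulum, and the Insig proteins hold them back when sterols are plentiful. In peripheral nerve this supply matters for growing axons and, above all, for the membrane that Schwann cells lay down as myelin, which is rich in cholesterol and begins to form around birth.

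The promoters of these enzymes share short sequence words, and 3 of them are shown because they hold the most CCAAT words, the letters bound by the factor NF-Y, which works beside SREBPs. The windows run from 250 bases before to 50 bases after the annotated start of the gene. Sequences are those of RefSeq in mouse build GRCm38.p6, on the + strand, at chr13:119690101-119690400 for *Hmgcs1*, chr5:114444019-114444318 for *Mvk* and chrX:72918271-72918570 for *Nsdhl*. Capitals mark CCAAT on either strand (read as ATTGG on the other) and, in *Hmgcs1*, the sterol regulatory element TCACNCCAC.
Hmgcs1: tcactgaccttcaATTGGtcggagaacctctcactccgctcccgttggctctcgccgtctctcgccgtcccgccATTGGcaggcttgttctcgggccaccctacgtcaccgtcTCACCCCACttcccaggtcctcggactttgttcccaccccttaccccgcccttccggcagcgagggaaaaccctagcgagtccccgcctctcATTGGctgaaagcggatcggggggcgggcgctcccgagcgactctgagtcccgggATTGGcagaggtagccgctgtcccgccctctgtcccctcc
Mvk: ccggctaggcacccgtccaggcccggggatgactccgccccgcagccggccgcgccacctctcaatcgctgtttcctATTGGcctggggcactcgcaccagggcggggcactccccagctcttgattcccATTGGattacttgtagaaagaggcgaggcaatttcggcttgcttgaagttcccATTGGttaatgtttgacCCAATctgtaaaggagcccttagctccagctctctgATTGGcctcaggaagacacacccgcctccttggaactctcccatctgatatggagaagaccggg
Nsdhl: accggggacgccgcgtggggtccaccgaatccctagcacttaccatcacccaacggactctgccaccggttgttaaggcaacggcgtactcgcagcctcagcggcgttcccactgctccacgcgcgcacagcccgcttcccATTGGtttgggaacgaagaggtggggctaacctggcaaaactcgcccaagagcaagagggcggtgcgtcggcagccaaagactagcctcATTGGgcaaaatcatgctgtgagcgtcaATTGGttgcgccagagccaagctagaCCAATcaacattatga
*Mvk* held 5 CCAAT words in its window, *Hmgcs1* 4 and *Nsdhl* 4. A RefSeq promoter was at hand for 22 of the 27 genes. CCAAT was found for 14 of the 15 enzymes with a promoter, all but *Acat2*, or 93.3%, against 41.1% of the 27025 genes in the promoter table. The GC box GGGCGG was found for 14 of the 15 as well, all but *Pmvk*, against 38.2% of genes. TCACNCCAC was found in the window of *Hmgcs1* and of none of the other 21 genes, against 1.44% of genes. The direct repeat bound by the sterol sensor LXR was found in 0 of 22, the window of *Abca1* included, against 0.0148% of genes. Both strands were searched, and no match overlapped a match of another word. A match describes letters in this window and says nothing of binding in DRG.

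Between control and *WD1* cKO embryos, no cholesterol gene passed the test. Of the 27 genes, 0 had an adjusted p-value under 0.05 (edgeR's quasi-likelihood test, Benjamini-Hochberg adjusted, adjusted p = 1.00 for each), where 0.0400% of all genes tested did. At an unadjusted p-value under 0.05 the count was 1, *Srebf1*, lower in *WD1* cKO, against 4.50% of all genes in both directions and 2.38% in that direction, and by DESeq2's Wald test 0 of the 27 had an adjusted p-value under 0.05. None passed the cut-off of the study, an unadjusted p-value under 0.005 with a log2 fold change beyond 0.15 in size, which 0.383% of all genes did. In none did all libraries of 1 group lie above all of the other, which was so for 1.06% of all genes. Without control replicate 3, which stood apart above, 0 of the 27 had an adjusted p-value under 0.05. In that fit 2 of them had an unadjusted one, *Lss* and *Hsd17b7*, both lower in *WD1* cKO. Over all genes 789 had an unadjusted p-value under 0.05 there, beside 787 with all libraries.

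The differences were small as well as uncalled. The log2 fold changes of the 27 genes lay between -0.11 and 0.081, with 13 above and 14 below 0 and a median of -0.0037, beside 0.00022 over all genes tested. The 95% interval held 0 in 26 of the 27 genes and lay within a change of 15% in either direction in 25 of the 27. The exceptions were *Idi1* and *Ebp*, and the outermost bounds of any gene were changes of -14.4% and 22%. Changes of the size seen for *Dach1* were thus outside the interval of every cholesterol gene. Smaller ones were not: a log2 fold change of 0.15, the size limit of the study, lay inside the interval of some. The intervals of *Idi1*, *Fdps*, *Pmvk*, *Lss*, *Hsd17b7*, *Ebp*, *Insig2*, *Srebf1* and *Srebf2* reached past this size in at least 1 direction.

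**Figure D1:**
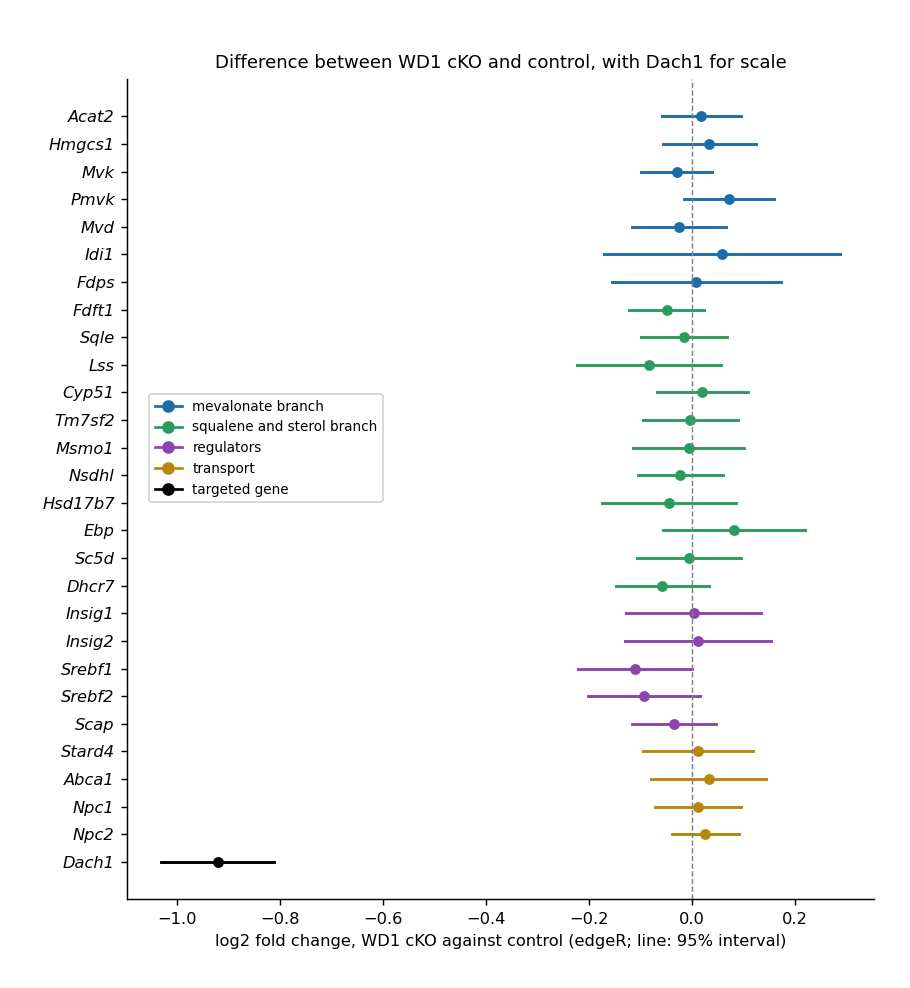
Log2 fold change of each cholesterol gene, *WD1* cKO against control (x axis, negative is lower in *WD1* cKO), with its 95% interval from edgeR (line) and *Dach1* for scale. The 27 genes lie between -0.11 and 0.081 around the dashed line at 0, and *Dach1* lies at -0.92.

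The mevalonate branch opens the pathway and had 7 genes, of which 5 lay above and 2 below 0 and none passed the test (median log2 fold change 0.018). *Hmgcs1*, the synthase that makes HMG-CoA, stood at 717, 681, 645, 708 and 718 CPM in control replicates 1 to 5. In *WD1* cKO replicates 1 to 5 it stood at 744, 734, 681, 700 and 690 CPM. The groups overlapped over most of their range, and the log2 fold change was 0.033 ± 0.042 (SE, n = 5 per group, exact permutation test, two-sided, p = 0.444).

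*Pmvk*, the kinase that adds the second phosphate to mevalonate, had the largest positive difference of the branch. It stood at 60.6, 65.8, 64.0, 63.2 and 67.4 CPM in control and at 72.5, 68.3, 65.9, 65.5 and 65.2 CPM in *WD1* cKO replicates 1 to 5. A pair of *WD1* cKO libraries lay above every control library and the others lay among them. The log2 fold change was 0.071 ± 0.040 (SE, n = 5 per group, exact permutation test, two-sided, p = 0.0952, where 0.00794 is the smallest p this design allows).

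*Acat2*, which joins acetyl-CoA units, lay at 101 to 115 CPM in control and at 106 to 112 CPM in *WD1* cKO. *Mvk*, mevalonate kinase, held 73.8 to 77.9 CPM in control and 71.2 to 77.1 CPM in *WD1* cKO libraries, and *Mvd*, the decarboxylase that follows, ranged from 57.7 to 64.8 and from 55.9 to 62.8 CPM. The ranges of the groups overlapped in all 3 of these genes, and their log2 fold changes lay between -0.030 and 0.018.

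*Idi1* and *Fdps*, the isomerase and the farnesyl diphosphate synthase at the end of the branch, were the least well measured. *Idi1* stood at 6.0, 5.51, 5.32, 5.93 and 5.59 CPM in control and at 4.97, 6.0, 5.20, 7.37 and 6.06 CPM in *WD1* cKO, from 113 to 210 reads per library, and its log2 fold change of 0.058 ± 0.11 (SE) had the widest interval of the 27, from -0.17 to 0.29. The *WD1* cKO libraries spread on both sides of all controls. *Fdps* stood at 18.1, 17.4, 15.1, 17.2 and 19.3 CPM in control and at 15.7, 16.8, 17.0, 19.1 and 19.1 CPM in *WD1* cKO, with a log2 fold change of 0.0078 ± 0.075 (SE), and there too the groups covered the same range. Reads of these genes can belong to near-identical copies. Of the 50-base words in the main transcript of *Fdps*, 80.6% occur in 8 other annotated genes, and so do 21.3% of those of *Idi1* in 4 genes, 45.9% of those of *Acat2* in *Acat3* and 10.9% of those of *Fdft1* in *Gm6781*. None of these copies took many reads: the most was 1.93 CPM, for *Gm3571*, a copy of *Fdps*. How reads that map to several places were counted is not given in the sources used here, so the levels of *Fdps* and *Idi1*, and to a lesser degree *Acat2* and *Fdft1*, are uncertain.

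The squalene and sterol branch had 11 genes, of which 2 lay above and 9 below 0, again with none past the test (median log2 fold change -0.016). *Lss*, the cyclase that closes squalene oxide into the first sterol, had the largest negative difference of them. Its levels were 149, 151, 118, 129 and 129 CPM in control and 134, 127, 123, 133 and 121 CPM in *WD1* cKO replicates 1 to 5. Control replicates 1 and 2 lay above all other libraries and control replicate 3 below them, so that the *WD1* cKO values fell inside the control range (log2 fold change -0.084 ± 0.065 SE, n = 5 per group, exact permutation test, two-sided, p = 0.341). Without control replicate 3 the difference was -0.13 (unadjusted p = 0.0429, adjusted p = 1.00).

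*Hsd17b7*, which reduces a ketone left when methyl groups are taken off the ring, rested on 1 library in the same way. It stood at 56.0, 55, 44.6, 54.9 and 57.7 CPM in control and at 52.5, 51.2, 51.5, 53.1 and 51.8 CPM in *WD1* cKO. Replicates 1, 2, 4 and 5 of the controls were thus above every *WD1* cKO library and control replicate 3 was below them all. Over all libraries the log2 fold change was -0.045 ± 0.060 (SE, n = 5 per group, exact permutation test, two-sided, p = 0.659). Without control replicate 3 it was -0.10 and the groups no longer overlapped (edgeR's quasi-likelihood test, unadjusted p = 0.00852, adjusted p = 1.00). Smaller groups part more easily, and the share of all genes without overlap in that fit is not given here. The part of the spinal cord signal of that library in this was not tested.

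*Ebp*, the isomerase that moves a double bond of the ring, had the largest positive difference of the whole set, at 21.3, 21.4, 20.7, 24.0 and 24.7 CPM in control and 22.3, 22.5, 23.3, 24.9 and 25.6 CPM in *WD1* cKO. In both groups replicates 4 and 5 were the highest, which follows the library sets above, and the log2 fold change was 0.081 ± 0.064 (SE, n = 5 per group, exact permutation test, two-sided, p = 0.23). *Dhcr7*, a reductase of the last steps, ran the other way at 91.3, 98.3, 96.2, 102 and 99.5 CPM in control and 97.6, 98.8, 94.4, 88.3 and 88.9 CPM in *WD1* cKO. Its log2 fold change was -0.058 ± 0.042 (SE, exact permutation test, two-sided, p = 0.198), and *WD1* cKO replicates 4 and 5 were the lowest libraries while replicates 1 to 3 lay within the control range.

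The rest of the branch overlapped between the groups almost entirely. *Fdft1*, squalene synthase, held 137 to 148 CPM in control and 134 to 147 CPM in *WD1* cKO libraries. *Sqle*, the epoxidase that is a second control point of the pathway, ranged from 220 to 245 and from 217 to 234 CPM. *Cyp51*, the demethylase that follows *Lss*, held 147 to 168 CPM in control and 156 to 169 CPM in *WD1* cKO libraries. Of the enzymes that work on the ring after it, *Tm7sf2*, *Msmo1*, *Nsdhl* and *Sc5d* had log2 fold changes from -0.023 to -0.0037, each smaller than its SE.

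**Figure D2:**
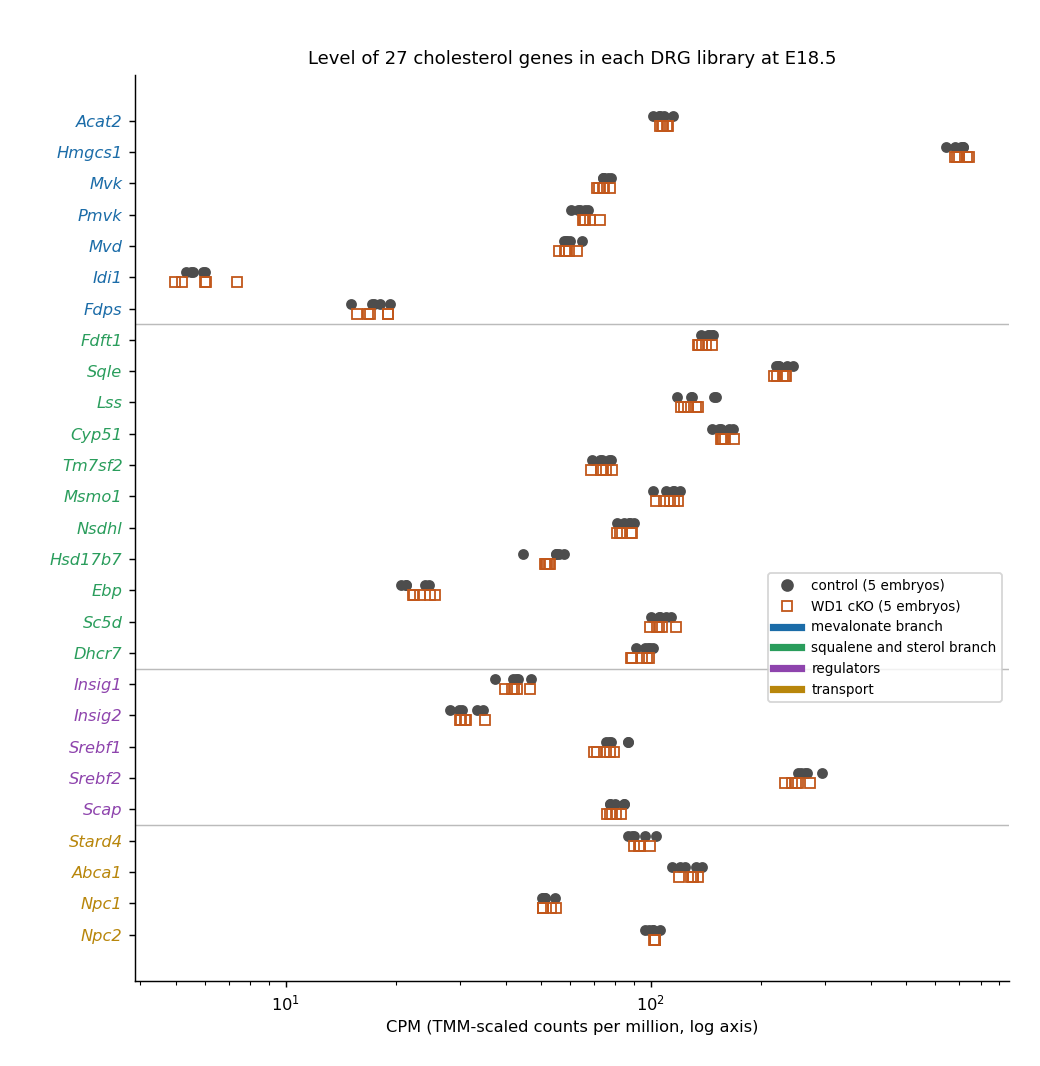
CPM of each gene (x axis, log scale) in the 5 control (filled circles) and 5 *WD1* cKO libraries (open squares), grouped by role. The groups overlap in all 27 genes; *Hmgcs1* is highest and *Idi1* lowest in CPM, and *Hsd17b7* has 1 control library far below the others.

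The regulators had 5 genes, of which 2 lay above and 3 below 0, and they held the largest negative differences. *Srebf1*, whose products favour genes of fatty acid synthesis, stood at 77.6, 76.8, 86.5, 86.4 and 75.4 CPM in control and at 69.9, 75.5, 77.2, 79.3 and 71.2 CPM in *WD1* cKO replicates 1 to 5. A pair of *WD1* cKO libraries lay below every control and a pair of controls above every *WD1* cKO library, with overlap between. The log2 fold change was -0.11 ± 0.051 (SE, n = 5 per group, edgeR's quasi-likelihood test, Benjamini-Hochberg adjusted, unadjusted p = 0.0487, adjusted p = 1.00), and an exact permutation test, two-sided, gave p = 0.119. With 1 library left out the difference ran from -0.13 to -0.084 and the unadjusted p-value from 0.0253, without control replicate 5, to 0.130, without control replicate 4. It was under 0.05 in 5 of the 10 such fits and above it without control replicates 3 or 4 and *WD1* cKO replicates 1, 2 or 5.

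*Srebf2*, whose product mainly drives cholesterol synthesis, was at 252, 258, 293, 267 and 265 CPM in control and at 254, 273, 249, 244 and 233 CPM in *WD1* cKO. *WD1* cKO replicates 3, 4 and 5 lay below all controls and replicates 1 and 2 among them. Its log2 fold change was -0.093 ± 0.050 (SE, n = 5 per group, exact permutation test, two-sided, p = 0.127), and it ran from -0.057 without control replicate 3, the highest library (unadjusted p = 0.227), to -0.13 without *WD1* cKO replicate 2 (unadjusted p = 0.0236, adjusted p = 1.00). *Scap* held 77.4 to 84.6 CPM in control and 75.8 to 82.8 CPM in *WD1* cKO libraries, with a log2 fold change of -0.035 ± 0.038 (SE).

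The sterol brakes *Insig1* and *Insig2* did not pass the test either. *Insig1*, itself a target of SREBPs, whose activity was not measured here, was at 47.1, 43.3, 37.4, 42 and 42.8 CPM in control and at 42.9, 41.6, 39.8, 46.6 and 42.3 CPM in *WD1* cKO. Its log2 fold change was 0.0031 ± 0.060 (SE, 95% interval -0.13 to 0.13), with the *WD1* cKO values inside the control range. *Insig2* held 28.1 to 34.6 CPM in control and 29.9 to 35.1 CPM in *WD1* cKO libraries (log2 fold change 0.012 ± 0.065 SE).

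Transport and handling had 4 genes, with log2 fold changes from 0.011 to 0.032 and none past the test. *Npc2*, the small lysosomal protein that passes cholesterol to Npc1, was at 96.2, 98.7, 101, 106 and 101 CPM in control and between 102 and 103 CPM in all 5 *WD1* cKO libraries. The *WD1* cKO values sat within the control range, and their SD was 0.216 against 3.59 CPM in control. *Npc1*, the lysosomal membrane exporter, ranged from 50.2 to 54.7 and from 50.6 to 55 CPM. *Abca1*, the pump that unloads cholesterol to lipoproteins and is a target of LXR, held 114 to 138 CPM in control and 119 to 134 CPM in *WD1* cKO libraries. *Stard4*, a soluble sterol carrier, ranged from 86.5 to 103 and from 89.9 to 99.5 CPM.

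How much of each transcript there was differed far more between genes than between embryos. Per kilobase of the main transcript, control DRG had 200 ± 9.0 CPM per kb (SD, n = 5) of *Hmgcs1*, 83.3 of *Sqle* and 54.9 of *Msmo1*. *Hmgcs1* and *Sqle*, the HMG-CoA synthase and the epoxidase, were apart from each other and from all that followed in every control library by this length. From *Msmo1* down, through *Pmvk* (53.8), *Srebf2* (52.6), *Tm7sf2* (50.3), *Acat2* (47.7) and *Mvk* (45.3), each gene overlapped with its neighbour. The order went on with *Cyp51* (40.1), *Nsdhl* (39.7), *Fdft1* (39.0), *Dhcr7* (34.6), *Mvd* (34.2), *Npc2* (30.5), *Lss* (29.0) and *Sc5d* (22.4). *Scap* (19.1), *Srebf1* (18.7), *Stard4* (18.2), *Insig1* (15.8), *Ebp* (12.9), *Fdps* (12.6), *Abca1* (12.3), *Hsd17b7* (11.6), *Insig2* (11.6) and *Npc1* (9.88) followed, each overlapping the next in range, and *Idi1* (1.87) was last and apart. Of the 26 neighbours in this order, 18 overlapped in range. With the length of all exons of a gene taken instead, a choice made after the data were seen, ranks moved by up to 10 places. *Hmgcs1* stayed the first and *Idi1* the last, but *Sqle* no longer stood apart, at 41.4 CPM per kb beside 42.2 for *Acat2*, and *Msmo1* fell to place 13.

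**Figure D3:**
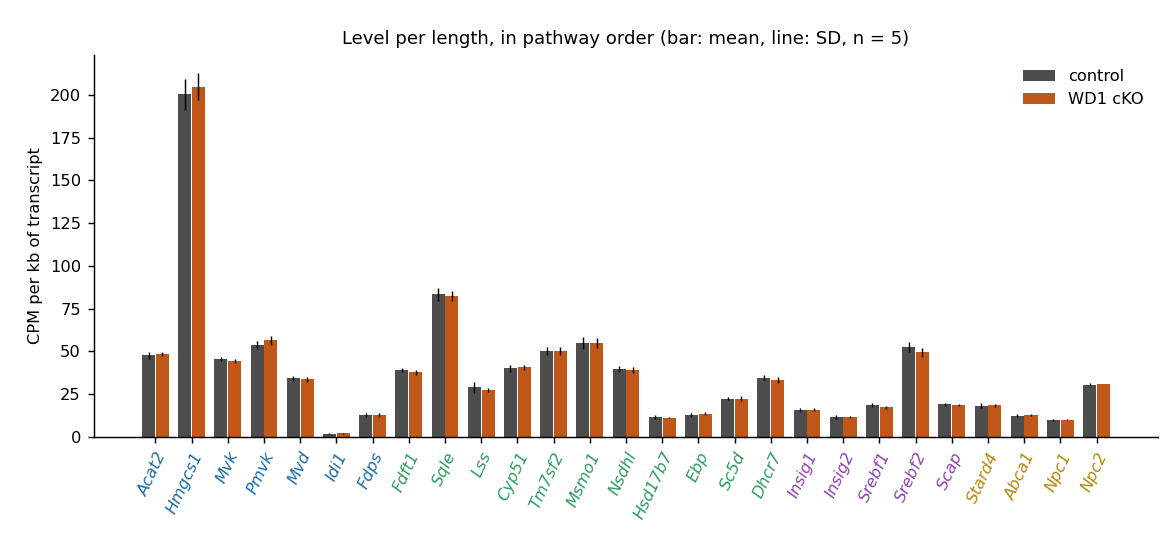
Level per kilobase of the main transcript (y axis, CPM per kb, from 0) in pathway order, as the mean of 5 control and 5 *WD1* cKO libraries with the SD as a line. *Hmgcs1* stands at 200 in control, *Sqle* at 83.3 and *Idi1* at 1.87, and the bars of both groups are near the same height for each gene.

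Across all 10 libraries the cholesterol genes varied little. The median ratio of the highest to the lowest library was 1.18 over the 27 genes (from 1.09 to 1.48), and 1.30 over all genes tested, a value that also reflects genes of low counts. Among the enzymes the library that stood out was control replicate 3: of 18 enzymes, 16 were below their mean there (median -0.095 on the log2 scale), and for 8 it was the lowest of the 10 libraries, where 15.7% of all genes tested were lowest in it. *Srebf1*, *Srebf2* and *Scap* were highest in that same library. *WD1* cKO replicate 3 also had 16 of 18 enzymes below the mean, by a median of -0.039. Over all genes tested the median deviation was -0.0010 in control replicate 3 and 0.0045 in *WD1* cKO replicate 3. The spinal cord genes were at 12.5 CPM in control replicate 3, as given above, and at 1.13 CPM, the next highest sum, in *WD1* cKO replicate 3. The same libraries also had the highest sums of connective tissue genes, 5757 and 5356 CPM against 4119 to 5259 CPM in the others, and of endothelium genes, 257 and 252 CPM against 206 to 251 CPM. The part of these tissues in the enzyme levels was not tested.

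The genes that mark myelinating Schwann cells, large users of cholesterol in nerve, varied more between libraries than the enzymes did. The 8 myelin genes summed to between 596 and 929 CPM in control and between 567 and 1020 CPM in *WD1* cKO, with replicates 4 and 5 the highest in each group. *Egr2*, the factor that drives myelination, ranged from 1.39 to 8.84 CPM over the 10 libraries. Their median deviations from the mean on the log2 scale were -0.45, -0.48, -0.15, 0.40 and 0.23 in control replicates 1 to 5, where those of the enzymes were -0.0078, -0.0039, -0.095, 0.044 and 0.066. In *WD1* cKO replicates 1 to 5 the myelin medians were -0.58, 0.19, -0.12, 0.65 and 0.54 and the enzyme medians 0.0075, 0.021, -0.039, 0.011 and -0.013. The sign was thus the same in 5 of 5 control and 3 of 5 *WD1* cKO libraries, and the size was smaller for the enzymes in each of the 10. Between the groups 0 of 8 myelin genes passed the test, with 7 above 0 and a median log2 fold change of 0.20.

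**Figure D4:**
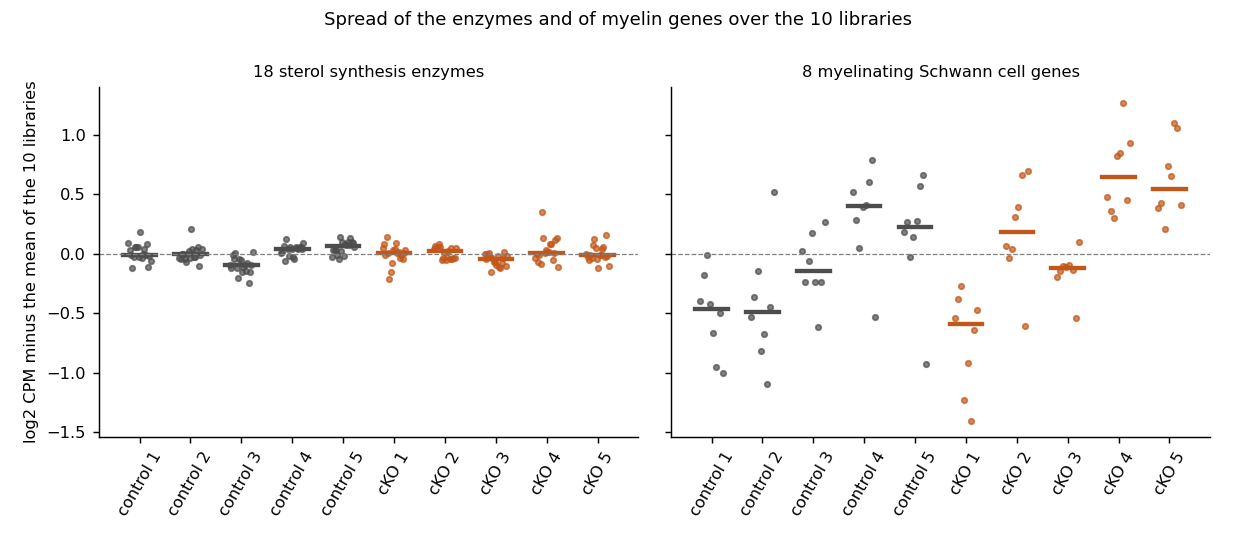
Deviation of each gene from its mean over the 10 libraries (y axis, log2 CPM) for the 18 enzymes (left) and the 8 myelin genes (right), with 1 point per gene and the library median as a bar. The enzymes stay close to 0 with control replicate 3 lowest at -0.095, and the myelin medians run from -0.58 to 0.65.

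Within the library sets, most differences of the cholesterol genes did not keep their sign. Between replicates 1 to 3 of each group they ran from -0.11 to 0.12 (median 0.020), and between replicates 4 and 5 from -0.18 to 0.21 (median -0.027). The sign was the same in both sets for 10 of the 27 genes and opposite for 17. The genes with the largest differences over all libraries were among the 10. These were *Srebf1* (-0.11 and -0.10), *Srebf2* (-0.049 and -0.16), *Lss* (-0.11 and -0.027), *Ebp* (0.10 and 0.054) and *Pmvk* (0.12 and 0.0017). The share of all genes that kept their sign is not given here. With the set as a term in the model, *Srebf1* had a log2 fold change of -0.11 (edgeR's quasi-likelihood test, Benjamini-Hochberg adjusted, unadjusted p = 0.0458, adjusted p = 0.670).

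Other genes of sterol and fatty acid supply did not pass the test either. In a list of 27, which holds *Fasn*, *Scd2*, the receptors *Lrp8* and *Vldlr* and the LXR genes, 0 passed the test at an adjusted p-value under 0.05, 13 lay above and 14 below 0, and the median log2 fold change was -0.0022. An unadjusted p-value under 0.05 was found for 1 of the 27, against 4.50% of all genes tested. This was *Soat1*, which stores cholesterol as esters. It was at 31.1, 35.2, 35.4, 36.7 and 33.7 CPM in control and at 36.5, 39.5, 39.0, 38.6 and 34.5 CPM in *WD1* cKO. *WD1* cKO replicates 2, 3 and 4 were above all controls and replicates 1 and 5 were within their range (log2 fold change 0.13 ± 0.054 SE, n = 5 per group, unadjusted p = 0.0362, adjusted p = 1.00 by edgeR's quasi-likelihood test, Benjamini-Hochberg adjusted). In the marker lists of sensory neurons, Schwann cells and satellite glia, blood, connective tissue, muscle, endothelium, macrophages and fat cells, 0 genes were called at an adjusted p-value under 0.05, and no spinal cord gene and 1 of 4 fat cell genes had enough counts to be tested. The medians of these lists lay between -0.94 for blood and 0.11 for connective tissue on the log2 scale. *Lum*, a matrix protein of connective tissue, had a log2 fold change of 0.22 (unadjusted p = 0.0277 by edgeR, adjusted p = 1.00). The sum of the neuron list differed by 1.09-fold and that of the glia list by 1.12-fold between the highest and the lowest library.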

How the data were processed

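RNA of 10 DRG samples, 5 control and 5 *WD1* cKO, was made into stranded mRNA libraries. The authors demultiplexed reads with bcl2fastq 2.20.0.422, aligned them with STAR 2.7.8a to GRCm39 and counted them per gene with featureCounts 2.0.1 on Ensembl annotation 105, and deposited whole-number counts per library without normalization. The strand setting and the treatment of multi-mapping reads are not given in the sources used here. Controls were littermates of mutants, but nothing in the labels ties replicate numbers to litters, so p-values measure the spread between these samples.

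Symbols came from a table of gene names and the GENCODE annotation of GRCm38, used for names, lengths and overlaps only. edgeR 4.0.16 (R 4.3.3) was run on genes that reached 10 counts in 5 or more libraries, with TMM scaling and the quasi-likelihood test without covariates, as no covariate is named in the methods of the study, adjusted by Benjamini-Hochberg over 17490 genes. The edgeR steps were tested on simulated data. Exact permutation tests, two-sided, compared mean log2 CPM (prior count 1). Levels per length used the longest principal transcript. The 27 genes and all lists were chosen with earlier results of these data known. All 27 were named, and genes of other lists where the unadjusted p-value was under 0.05 or a library stood apart. Alternatives were DESeq2 1.42.0, its size factors, other filters, robust dispersions, a replicate block and each library left out. No library repeated another of its group: the chi-square of their counts was 4.33 to 15.7 per degree of freedom. Some genes of the pathway and of the marker lists are not reported here.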

Additional observations from a re-analysis of the deposited data

Results flagged for a closer look

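In a group of 5 libraries, a value was marked where the gap between it and the nearest library, as a share of the range of the group, passed Dixon's 95% limit. Chance alone marks about 1 in 20 groups, or 2.7 of the 54 groups of the 27 genes, and 3 were found. *Hsd17b7* was at 44.6 CPM in control replicate 3, below the other controls at 54.9 to 57.7 CPM. *Insig2* was at 35.1 CPM in *WD1* cKO replicate 5, above the other *WD1* cKO libraries at 29.9 to 31.2 CPM. *Npc1* was at 54.7 CPM in control replicate 5, above the other controls at 50.2 to 51.2 CPM.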

How the results depend on the processing

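Under the 16 alternatives, no cholesterol gene reached an adjusted p-value under 0.05, and the smallest adjusted p-value of any of them was 0.556. Of 432 values of single genes, 36 had the sign turned, in 14 genes that all lay within 0.058 of 0 and none past 0.039 after the turn. Without a filter on low counts, *Tm7sf2* was at 0.0063, *Msmo1* at 0.0032 and *Sc5d* at 0.0041. In that fit 1496 genes of all had an unadjusted p-value under 0.05, 128 passed the study's cut-off and 0 cholesterol genes had an unadjusted p-value under 0.05. More genes were tested there than the 17490 of the main fit, so these counts cannot be set beside the main counts as shares. With a mean count of at least 100, where fewer genes were tested, 4 genes of all passed at an adjusted p-value under 0.05. At an unadjusted one 0 cholesterol genes and 575 genes of all passed. DESeq2's Wald test called 19 genes of all at an adjusted p-value under 0.05. When libraries were dropped 1 at a time, 3 to 6 genes of all passed at an adjusted p-value under 0.05. An unadjusted p-value under 0.05 was reached by 0 to 2 cholesterol genes and 0 to 2 other lipid genes. Among all genes it was reached by 639 without *WD1* cKO replicate 3 and by 965 without control replicate 5. Between groups 0 to 1 cholesterol genes did not overlap (*Hsd17b7* without control replicate 3, *Npc2* without control replicate 4). The share of all genes without overlap in these fits is not given here, and smaller groups part more easily. In those fits the signs that turned were within these ranges: *Acat2* -0.0014 to 0.043, *Mvd* -0.049 to 0.0047, *Idi1* -0.027 to 0.11, *Fdps* -0.039 to 0.046, *Sqle* -0.031 to 0.0090, *Cyp51* -0.0039 to 0.044, *Tm7sf2* -0.027 to 0.022, *Msmo1* -0.042 to 0.020, *Sc5d* -0.040 to 0.018, *Insig1* -0.039 to 0.041, *Insig2* -0.035 to 0.052, *Stard4* -0.013 to 0.054, *Abca1* -0.00066 to 0.067 and *Npc1* -0.0087 to 0.033. With a term for replicates 1 to 3 against 4 and 5, chosen after seeing the data, 11 genes of all passed at an adjusted p-value under 0.05, 1282 at an unadjusted one, and 117 passed the study's cut-off. The filters changed the number of genes tested, and the cause of these shifts was not tested.

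With the replicate number as a block, 1241 genes of all had an unadjusted p-value under 0.05 and 133 passed the study's cut-off, against 787 and 67 without it. *Srebf1* was then at -0.11 (edgeR's quasi-likelihood test, unadjusted p = 0.00700, adjusted p = 0.556), and it was the 1 cholesterol gene with an unadjusted p-value under 0.05. The deviations of same-numbered libraries correlated at 0.0404 to 0.390, and 7 of 10 libraries correlated best with their own number. Controls were littermates by the study's text, but the labels do not say that a number marks a litter and replicate 2 lay under 0.1, so the numbers were not taken as pairs. Depth limits *Idi1* most.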
